A study of Mus musculus with 2 samples.

Results

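The 8 genes of the Sox family followed here through sorted wound cells are *Sox2*, *Sox4*, *Sox5*, *Sox9*, *Sox10*, *Sox11*, *Sox17* and *Sox18*. They were taken by symbol from the gene list shared by both libraries, and all 8 were found. Tomato+ cells had been sorted from the dermis of small skin wounds of mice aged 4 to 5 weeks, 3 days after the wound had closed over. Mice of both groups were fed chow that contained doxycycline at 20 g per kg of chow, and the cells of several mice went into each library. The control library came from *SM22rtTA; tetO-Cre; R26-Tomato* mice, and the other from *SM22rtTA; tetO-Cre; R26-SmoM2/Tomato* mice, called *SM22-SmoM2* here. In both, the *SM22* promoter drives the doxycycline-dependent transactivator and so decides which cells turn on Cre and Tomato. In the second, the same cells also turn on SmoM2, a permanently active form of the Hedgehog (Hh) receptor component Smoothened. Each condition is 1 library, so no test between conditions was possible, and every interval given is a 95% interval that covers counting error only.

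Sox proteins bind DNA through a shared HMG box and fall into groups by its sequence. Sox2 (SoxB1) and Sox10 (SoxE) are known from neural crest and glial cells, and Sox10 is needed for Schwann cells to form and to make myelin. Sox9, another SoxE factor, is known from cartilage and from the stem cells of the hair follicle, and Sox5 (SoxD) works with it in cartilage. Sox4 and Sox11 (SoxC) are found in many progenitors, and Sox17 and Sox18 (SoxF) act in endothelium. *Sox2* and *Sox18* are also expressed in the dermal papilla, the mesenchymal cluster at the base of the hair follicle.

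All 8 genes were placed in the GENCODE M21 annotation of GRCm38 by Ensembl identifier. *Sox11* (ENSMUSG00000063632) is on chromosome 12 at 27334264 to 27342574, *Sox4* (ENSMUSG00000076431) on chromosome 13 at 28948919 to 28953713, and *Sox18* (ENSMUSG00000046470) on chromosome 2 at 181669836 to 181671640, all on the minus strand. *Sox9* (ENSMUSG00000000567) lies on the plus strand of chromosome 11 at 112782224 to 112787760, and *Sox2* (ENSMUSG00000074637) on the plus strand of chromosome 3 at 34650405 to 34652461. *Sox10* (ENSMUSG00000033006) is on chromosome 15 at 79154908 to 79165240, *Sox17* (ENSMUSG00000025902) on chromosome 1 at 4490931 to 4497354, and *Sox5* (ENSMUSG00000041540) on chromosome 6 at 143828425 to 144781977, again on the minus strand. *Sox2* lies within the noncoding gene *Sox2ot* on the same strand, and *Sox4* overlaps *Gm26735* on the opposite strand, which held 93 control UMIs and 66 *SM22-SmoM2* UMIs, and whether antisense reads were counted apart is not given in the sources used here. The antisense genes within *Sox5* that have a row in the files held none.

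RefSeq promoters on GRCm38.p6, each from 250 bases before to 50 bases after the start site, were given for 4 of the 8 genes. Those of the SoxC pair are shown because *Sox4* and *Sox11* had the most UMIs of the 8 genes over both libraries together and because one was found in every lineage while the other was concentrated in fibroblasts. The CCAAT box (CCAAT or ATTGG) is in capitals.
Sox11, chr12:27342669-27342968, minus strand: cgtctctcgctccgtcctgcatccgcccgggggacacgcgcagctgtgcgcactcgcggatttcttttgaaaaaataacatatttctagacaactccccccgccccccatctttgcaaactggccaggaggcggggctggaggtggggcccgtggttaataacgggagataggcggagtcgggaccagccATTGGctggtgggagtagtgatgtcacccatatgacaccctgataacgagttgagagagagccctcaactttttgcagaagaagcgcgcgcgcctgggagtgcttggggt
Sox4, chr13:28953650-28953949, minus strand: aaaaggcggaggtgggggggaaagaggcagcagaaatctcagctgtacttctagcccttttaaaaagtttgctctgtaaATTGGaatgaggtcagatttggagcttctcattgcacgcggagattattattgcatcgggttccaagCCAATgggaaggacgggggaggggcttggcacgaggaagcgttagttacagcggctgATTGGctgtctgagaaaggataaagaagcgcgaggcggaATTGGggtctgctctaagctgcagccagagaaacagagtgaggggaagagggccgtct
The *Sox11* window held 1 CCAAT box and the *Sox4* window 4, a motif found in 37.4% of the 32851 promoters searched. Neither held the letters ACCACCC or GGGTGGT, the core of the site read by the Hh factors of the Gli family, which 4.61% of promoters held. Neither held TATAA or TTATA, found in 24.9%. A match or its absence in these windows describes the letters alone.

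After filtering, 2856 control cells with 30103855 UMIs and 1792 *SM22-SmoM2* cells with 17814222 UMIs were kept, at medians of 8607.5 and 8837.5 UMIs per cell. Clusters were named from lineage markers that held no Sox gene, and no Sox gene was used to make the clusters. Fibroblasts numbered 1089 control and 1047 *SM22-SmoM2* cells, endothelial cells 692 and 262, Schwann cells 677 and 294, mural muscle cells 283 and 102, and immune cells 82 and 33. A further cluster of 51 cells came from the *SM22-SmoM2* library alone, was led by *a*, *Ibsp*, *Cd24a*, *Rarres1*, *Wif1* and *Rspo3*, and took no lineage's name: the list with the highest mean in it, that of fibroblasts, had 2 of 6 markers raised, although 3 of 6 mural muscle markers were raised as well. It is kept apart below as the unnamed cluster, with a median of 4771 UMIs per cell against 11188 in *SM22-SmoM2* fibroblasts. *Smo* was at 52.1 UMIs per 1000000 UMIs of the group (CPM) in control fibroblasts and 55.9 CPM in *SM22-SmoM2* fibroblasts. Any part of SmoM2 in these *Smo* UMIs was not tested, so they give no level for SmoM2. In fibroblasts the Hh targets *Gli1*, at 6.03 and 30.8 CPM, and *Ptch1*, at 12.2 and 142 CPM, were higher in the second library. The log2 ratio of *SM22-SmoM2* over control for *Ptch1* was 0.52 (-0.10 to 1.12) in Schwann cells and 0.43 (-0.10 to 0.93) in endothelial cells. In muscle it was 1.77 (0.70 to 2.85). *Gli1* had only 3 control and 5 *SM22-SmoM2* UMIs in Schwann cells, and as many in endothelial cells. *Tagln*, the gene of SM22, was at 1351 and 748 CPM in muscle, 139.8 and 204 CPM in fibroblasts, 191 and 134 CPM in endothelial cells and 62.1 and 96.1 CPM in Schwann cells. Male cells made up 74.7% of the control and 94.4% of the *SM22-SmoM2* fibroblasts whose sex could be called, and the part of sex in the fibroblast differences below was read from male cells alone.

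The 8 genes differed in the lineages that held them (plot of levels by lineage). Schwann cells held 91.3% (88.8 to 93.4) of the 610 control *Sox2* UMIs and 92.0% (88.1 to 95) of the 263 *SM22-SmoM2* ones, where they held 15.7% and 11.3% of all UMIs. *Sox10* lay in Schwann cells for 91.9% and 92.8% of its UMIs. *Sox17* lay in endothelial cells for 94.7% and 91.7%. For *Sox18* the libraries differed. Endothelial cells held 98.7% (96.9 to 99.6) of its 374 control UMIs but 44.4% (38.5 to 50.5) of its 279 *SM22-SmoM2* UMIs, and fibroblasts held 0.802% and 41.6%.

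**Figure D1:**
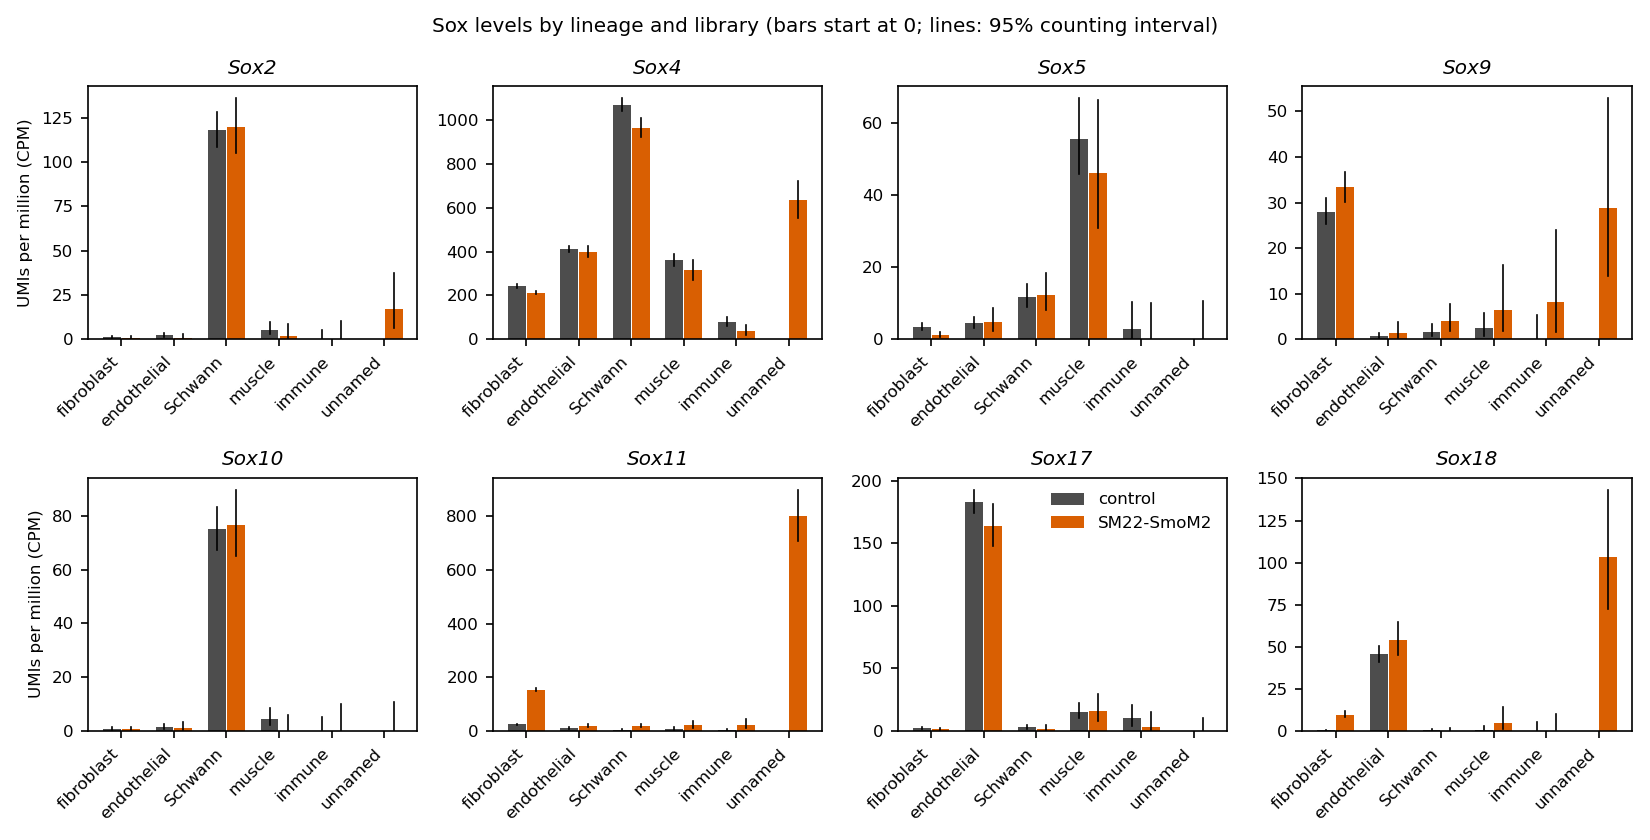
Level of each Sox gene in UMIs per 1000000 (CPM, vertical axis) in the lineages and the unnamed cluster (horizontal axis) of the control (grey) and *SM22-SmoM2* (orange) library, with lines for the 95% counting interval. *Sox2* and *Sox10* stand in Schwann cells, *Sox17* in endothelium and *Sox5* in muscle in both libraries, while *Sox11* and *Sox18* are seen in fibroblasts mainly in the *SM22-SmoM2* library and reach 800.0 and 103.6 CPM in its unnamed cluster.

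*Sox4*, of the SoxC group, was found in every lineage. Its level was highest in Schwann cells, at 1069.7 and 963 CPM in the control and *SM22-SmoM2* library, followed by endothelial cells at 412 and 399 CPM, muscle at 360.4 and 314 CPM and fibroblasts at 242 and 212 CPM. Immune cells were lower, with 80.0 CPM from 56 control UMIs and 38.3 CPM from 14 *SM22-SmoM2* UMIs. The counting intervals of neighbours in this order did not overlap in either library, as with *SM22-SmoM2* endothelial cells (374 to 426) and muscle (272 to 361). The 16 control keratinocytes were at 290.1 CPM (233 to 357), an interval that overlapped those of muscle and fibroblasts. After every cell was thinned to 1500 UMIs, a *Sox4* UMI remained in 68.4% of control Schwann cells, 43.8% of endothelial cells and 28.7% of fibroblasts, against 94.8%, 86.6% and 80.8% before thinning.

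*Sox11*, of the same group, was instead found mainly in fibroblasts, which held 74.4% of its control and 82.9% of its *SM22-SmoM2* UMIs, where they held 46.8% and 68.1% of all UMIs, and its level there differed between the libraries. Control fibroblasts held 335 UMIs or 23.8 CPM (21.3 to 26.5), and *SM22-SmoM2* fibroblasts 1862 UMIs or 153 CPM (147 to 161). The log2 ratio of *SM22-SmoM2* over control was 2.69 (2.52 to 2.86). It was present in more cells as well: after thinning, 3.86% (2.79 to 5.18) of control and 17.3% (15 to 19.7) of *SM22-SmoM2* fibroblasts kept a *Sox11* UMI, against 17.1% and 46.0% before thinning. Of control Schwann cells, where the gene was at 3.18 CPM, 0.443% kept one after thinning, at a median of 5956 UMIs per cell against 12471 in control fibroblasts. The signal was uneven among cells. In all, 10 control fibroblasts and 128 of the 1047 *SM22-SmoM2* fibroblasts (12.2%) held 5 or more *Sox11* UMIs, and those 128 cells held 62.0% of the UMIs of the gene in that group.

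Among the 6 members with at least 50 UMIs in fibroblasts of both libraries together, 2 were higher in *SM22-SmoM2* by a log2 ratio of 1 or more and 1 was lower by as much, where 4.61% of the 11466 genes with as many UMIs were higher and 5.08% lower. The median log2 ratio was 0.03 over these 6 members and -0.08 over all genes. The second higher gene was *Sox18*, which reached 50 UMIs only through the *SM22-SmoM2* library, so its place in this count describes it only. Control fibroblasts held 3 *Sox18* UMIs in 1089 cells, a level of 0.213 CPM (0.0439 to 0.622), and *SM22-SmoM2* fibroblasts held 116 UMIs in 83 of 1047 cells, or 9.56 CPM (7.90 to 11.5). The log2 ratio was 5.49 (3.91 to 7.79). The level in *SM22-SmoM2* fibroblasts was still below the 54.2 CPM of endothelial cells from that library, and no fibroblast held more than 4 *Sox18* UMIs. All 6 endothelial markers were detected in fibroblasts of both libraries, with summed levels of 69.9 and 63.9 CPM in the control and *SM22-SmoM2* cells. *Sox17*, the other SoxF gene, was at 2.13 and 1.65 CPM in the same cells. The part of endothelial RNA in the *Sox18* value was not tested.

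*Sox5* was the member that was lower, at 3.48 CPM (2.57 to 4.60) from 49 UMIs in control and 1.24 CPM (0.692 to 2.04) from 15 UMIs in *SM22-SmoM2* fibroblasts, a log2 ratio of -1.49 (-2.43 to -0.63). *Sox4* had a log2 ratio of -0.19 (-0.26 to -0.11). *Sox9* was at 28.0 CPM (25.3 to 30.9) in control and 33.4 CPM (30.2 to 36.8) in *SM22-SmoM2* fibroblasts. Its log2 ratio was 0.25 (0.05 to 0.46). After thinning it was -0.01, a value that rests on far fewer UMIs, as 38 control and 36 *SM22-SmoM2* fibroblasts kept one. *Sox2*, *Sox10* and *Sox17* had 10 to 30 UMIs per library in fibroblasts, and their log2 ratios of -0.45, 0.22 and -0.37 had intervals that held 0. In male cells alone the log2 ratio was 2.59 for *Sox11*, 4.75 for *Sox18* and -2.15 for *Sox5*.

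**Figure D2:**
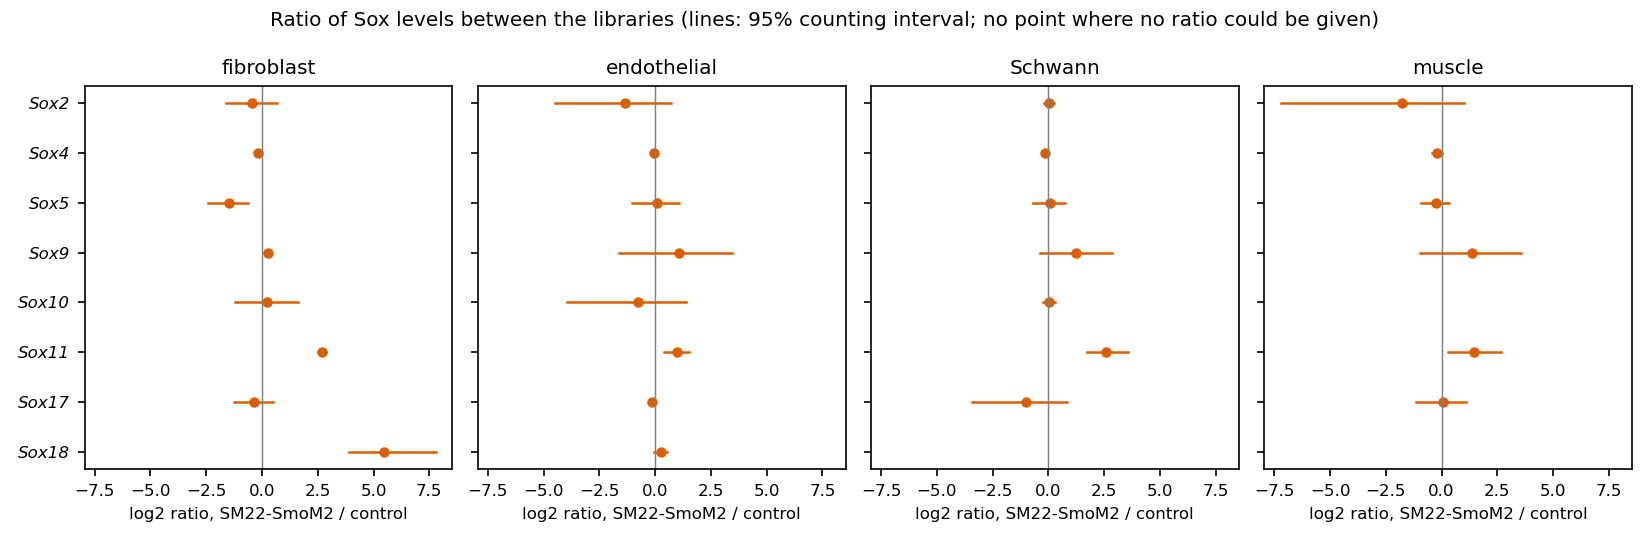
Log2 ratio of the level in *SM22-SmoM2* over control (horizontal axis) for each Sox gene (vertical axis) in 4 lineages, with lines for the 95% counting interval and no point where a library had no UMI or both had 3 or fewer. In fibroblasts *Sox11* (2.69) and *Sox18* (5.49) lie to the right of 0 and *Sox5* (-1.49) to the left, and *Sox2* and *Sox10* lie on 0 in Schwann cells.

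Genes linked to the members were read beside them from lists. Of the 6 Hh pathway genes, 5 were higher in *SM22-SmoM2* fibroblasts by a log2 ratio of at least 1, and *Smo* was not. Of all genes with 50 UMIs in fibroblasts, 4.61% were higher by as much and 5.08% lower. Of 14 genes known from the dermal papilla, 10 had 50 UMIs and 6 of these were higher, among them *Bmp3* at 8.44 and 33.5 CPM and *Wif1*, a secreted Wnt inhibitor, at 21.6 and 275 CPM, while *Bmp4* was lower at 5.82 and 1.40 CPM. Among genes linked to SoxC factors, 5 of 6 had 50 UMIs and 1 of these was higher, *Tead2*, a partner of the Hippo pathway factor YAP, at 28.9 and 60.4 CPM. Of the 9 cartilage genes of the Sox5, Sox6 and Sox9 trio 2 had 50 UMIs, and *Col11a1*, a fibrillar collagen, was at 24.5 and 67.0 CPM. The medians of these lists were 2.41, 1.27, 0.62 and 1.02 on the log2 scale, the last over only 2 genes, against -0.08 over all genes.

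Fibroblasts were divided into 15 sub-clusters, of which 13 were kept, and the Sox genes were spread unevenly over them (plot of fibroblast sub-clusters). Sub-cluster 6, with *Wif1* and *Egfl6* as its leading genes, held 166 *SM22-SmoM2* cells and 3 control cells. *Sox11* was at 589 CPM (961 UMIs) in these *SM22-SmoM2* cells, so 15.9% of the *SM22-SmoM2* fibroblasts held 51.6% of the *Sox11* UMIs. Next came sub-clusters 8 (dividing cells, led by *Ube2c* and *Ccnb1*) at 150.2 CPM, 4 (*Areg*, *Mmp13*) at 146 CPM and 7 (*Wif1*, *Egfl6*, *Ptch1*) at 142 CPM, whose intervals overlapped. The other sub-clusters with at least 20 *SM22-SmoM2* cells were between 18.9 and 69.5 CPM. Among sub-clusters with at least 20 control cells, the highest in that library was sub-cluster 9 (*Nov*, *Dlk1*, *Cxcl2*), at 67.0 CPM.

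*Sox18* did not follow *Sox11* across these sub-clusters. It was highest in sub-cluster 7, at 41.2 CPM, which held 44.0% of its UMIs in 12% of the *SM22-SmoM2* fibroblasts. It was at 9.81 CPM in sub-cluster 6 and at 12.3 CPM in sub-cluster 3 (*Mest*, *Wif1*, *Penk*). No *Sox18* UMI was found in the *SM22-SmoM2* cells of sub-clusters 1 (*Crabp1*, *Igfbp2*) and 2 (*Mmp13*, *Mmp3*), which allows up to 2.17 and 2.02 CPM. The Hh target *Ptch1* was at 17.4 and 13.5 CPM in these cells, against 196 CPM in sub-cluster 7, 239 CPM in sub-cluster 3 and 326 CPM in sub-cluster 11 (*Sfrp5*, *Cldn1*), where *Sox18* was at 9.76 CPM. In sub-cluster 4 *Ptch1* was at 102 CPM and *Sox18* at 1.25 CPM. In *SM22-SmoM2* cells the endothelial markers summed to 77.6 CPM in sub-cluster 7, 73.6 CPM in sub-cluster 3 and 226 CPM in sub-cluster 11. They summed to 59.0, 55.0 and 35.8 CPM in sub-clusters 4, 1 and 2, and to 47.5 and 19.6 CPM in sub-clusters 8 and 6. Their part in the *Sox18* values was not tested.

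*Sox9* followed neither gene. Sub-cluster 4 held 55.8% of its *SM22-SmoM2* UMIs at 94.0 CPM, and sub-cluster 7 had 6.47 CPM from 8 UMIs. Among sub-clusters with at least 20 control cells it was highest in sub-clusters 12 (*Cst6*, *Trf*, *Apod*) and 3, both at 86.7 CPM, the second from only 25 cells. *Sox5* in control fibroblasts was also highest in sub-cluster 12, at 20.6 CPM, and of its 49 UMIs sub-cluster 12 held 14 and sub-cluster 5 (*Nov*, *Eln*) held 19. The *SM22-SmoM2* library had 3 cells of sub-cluster 12 and 6 of sub-cluster 5.

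**Figure D3:**
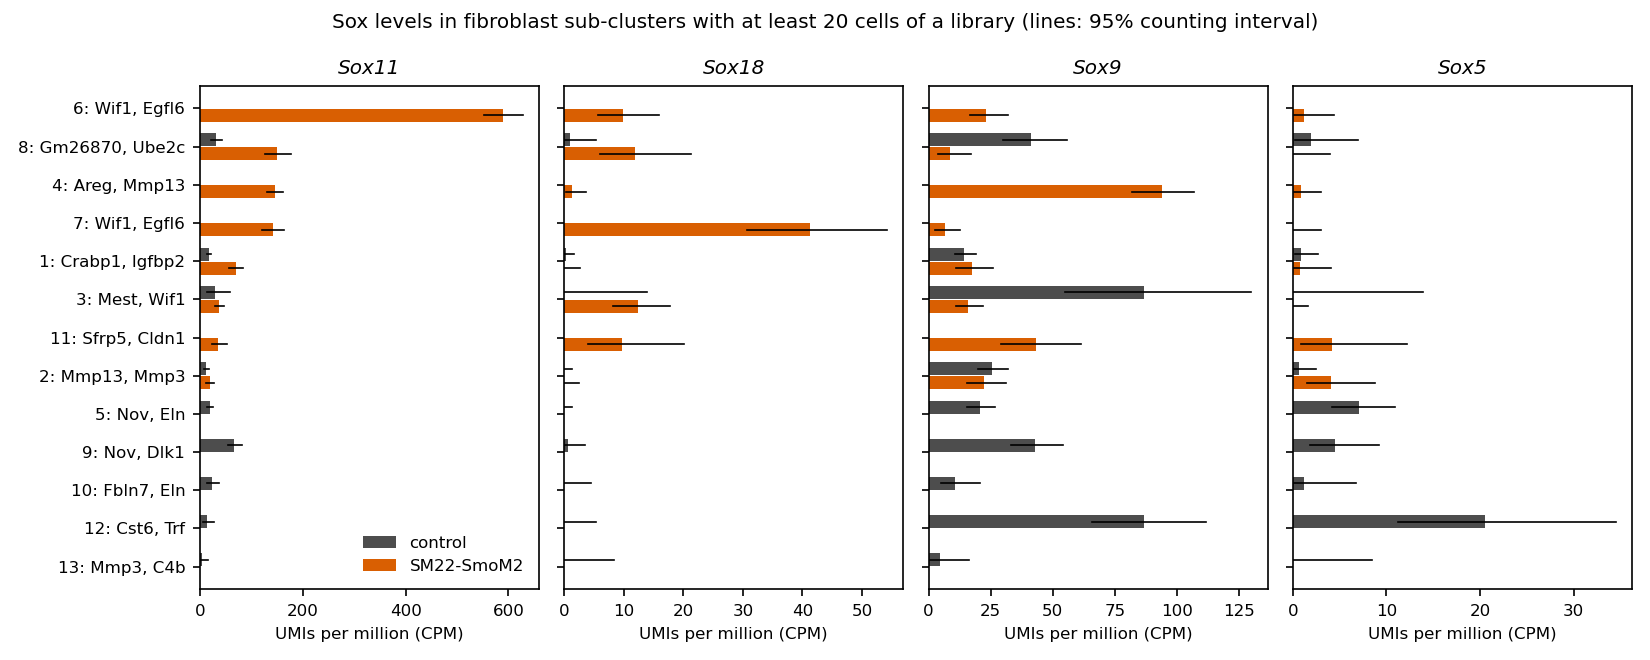
Level in UMIs per 1000000 (CPM, horizontal axis) of 4 Sox genes in fibroblast sub-clusters (vertical axis, with number and 2 leading genes) that have at least 20 cells of a library, control in grey and *SM22-SmoM2* in orange, lines for the 95% counting interval. *Sox11* is highest in sub-cluster 6 (589 CPM), *Sox18* in sub-cluster 7 (41.2 CPM) and, among *SM22-SmoM2* cells, *Sox9* in sub-cluster 4 (94.0 CPM).

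A few sub-clusters, 1, 2, 3 and 8, had at least 20 cells of each library, so the libraries can be set side by side within them. Their cells could still differ between the libraries. *Ptch1* was at 185 CPM in *SM22-SmoM2* against 1.93 CPM in control in sub-cluster 8, and at 239 against 102 CPM in sub-cluster 3. In sub-clusters 1 and 2 it was at 17.4 against 7.80 CPM and at 13.5 against 13.2 CPM. The part of such differences in the ratios below was not tested. *Sox11* was higher in *SM22-SmoM2* in sub-clusters 1 and 8, at 69.5 against 17.4 CPM and at 150.2 against 30.8 CPM, with log2 ratios of 2.0 (1.51 to 2.49) and 2.28 (1.72 to 2.89). In sub-clusters 2 and 3 the log2 ratios were 0.63 (-0.13 to 1.39) and 0.31 (-0.73 to 1.57). *Sox9*, which was slightly higher in *SM22-SmoM2* fibroblasts as a whole, was lower within sub-cluster 3, at 15.9 against 86.7 CPM, and within sub-cluster 8, at 8.64 against 41.4 CPM. The log2 ratios were -2.45 (-3.24 to -1.63) and -2.26 (-3.56 to -1.16). In sub-clusters 1 and 2 they were 0.27 and -0.19, with intervals that held 0. *Sox4* was lower in *SM22-SmoM2* in each of the 4, with log2 ratios of -0.67 to -0.21, of which those of sub-clusters 1 and 8 had intervals that held 0. *Sox5*, lower in *SM22-SmoM2* fibroblasts as a whole, gave a ratio only in sub-cluster 2. It was higher there, with a log2 ratio of 2.58 (0.10 to 5.92) from only 6 *SM22-SmoM2* UMIs and 2 control UMIs.

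The unnamed cluster had the highest *Sox11* level found, 800.0 CPM (709 to 899.8) from 278 UMIs in 51 cells, of which 33 had at least 1 UMI and 20 had 5 or more. *Sox18* was at 103.6 CPM (72.6 to 143) from 36 UMIs in 17 cells, above the 54.2 CPM (45.1 to 64.7) of endothelial cells in the same library. *Sox4* was at 633 CPM and *Sox9* at 28.8 CPM. *Sox2* was at 17.3 CPM (6.34 to 37.6), from 6 UMIs in 4 cells. *Sox5*, *Sox10* and *Sox17* had no UMI there, which allows up to 8.63 CPM for each. Of the 6 endothelial markers *Emcn* and *Vwf* were at 0 and the list summed to 51.8 CPM, and the fibroblast markers summed to 3879 CPM, against 21392 CPM in *SM22-SmoM2* fibroblasts. The mural muscle markers, of which *Myh11* was at 0, summed to 305 CPM, against 38.9 CPM in *SM22-SmoM2* fibroblasts and 9310 CPM in muscle, and their part in the values of the unnamed cluster was not tested.

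Counted with the fibroblasts, the unnamed cluster moved the log2 ratio over control to 2.85 (2.68 to 3.02) for *Sox11* and 5.84 (4.26 to 8.13) for *Sox18*. Again 2 of 6 members were higher and 1 was lower, with backgrounds of 5.03% and 4.9%. *Sox18* again reached 50 UMIs only through the *SM22-SmoM2* library, at 152 UMIs against 3, so its place in this count describes it only. Against *SM22-SmoM2* fibroblasts, 3 of the 4 members with 50 UMIs were higher in the unnamed cluster by a log2 ratio of at least 1, where 21.1% of all genes were and 10.1% were lower. These were *Sox18* (3.44, 2.86 to 3.99), *Sox11* (2.38, 2.19 to 2.56) and *Sox4* (1.58, 1.37 to 1.78). All 13 dermal papilla genes with 50 UMIs were higher, with a median log2 ratio of 3.57, and the cluster was set apart by such genes, so this count describes it only. Examples are *Rspo3*, an activator of Wnt signaling, at 596 against 10.1 CPM, *Lef1*, a transcription factor of the same pathway, at 115 against 0.907 CPM, and *Alpl*, the alkaline phosphatase used to stain dermal papillae, at 337 against 10.7 CPM. *Egfl6*, by contrast, was at 181 against 163 CPM, a log2 ratio of 0.16 (-0.23 to 0.52).

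*Egfl6*, a secreted protein with EGF repeats, was at 4.89 CPM in control fibroblasts and 163 CPM in *SM22-SmoM2* ones, whose cells were divided by it. At least 1 *Egfl6* UMI was found in 293 *SM22-SmoM2* fibroblasts (28.0%) at a median of 9970 UMIs per cell, and none in 754 cells at a median of 11792.5. In control fibroblasts 38 cells had one and 1051 had none. UMIs of *Egfl6* itself were left out of the totals. *Sox11* was at 325 CPM (1043 UMIs) in the *SM22-SmoM2* cells with *Egfl6* and at 91.8 CPM (819 UMIs) in those without, a log2 ratio of 1.82 (1.69 to 1.96). *Sox18* was at 16.2 and 7.18 CPM, a log2 ratio of 1.17 (0.62 to 1.72). After thinning it was 0.41, a value that rests on few UMIs, as only 16 *SM22-SmoM2* fibroblasts kept a *Sox18* UMI. *Sox9* went the other way, at 17.1 and 39.3 CPM, with a log2 ratio of -1.20 (-1.63 to -0.78), and *Sox4* was at 192 and 220 CPM (-0.19, -0.32 to -0.06).

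Of the 4 members with 50 UMIs in this split, 2 were higher by a log2 ratio of at least 1 in cells with *Egfl6* and 1 lower, where 2.43% of 9918 genes were higher and 4.23% lower. *Egfl6* and *Sox11* were both leading genes of sub-cluster 6, and the *Sox18* ratio was below 1 after thinning, where few of its UMIs remained. This count is therefore a description of the split only. The Hh targets differed less, with log2 ratios of 0.53 for *Gli1* and 0.35 for *Ptch1*, and none of the 6 Hh pathway genes passed 1. Fibroblast markers differed as well and summed to 13420 CPM with and 24265 CPM without *Egfl6* in *SM22-SmoM2*. In control fibroblasts *Sox11* was at 10.9 CPM (6 UMIs) with and 24.3 CPM without *Egfl6*, a log2 ratio of -1.16 (-2.62 to -0.02). None of the 3 members with 50 UMIs in that library was higher and 1 was lower, with backgrounds of 3.48% and 6.22%. The cells without *Egfl6* also differed between the libraries, at 91.8 CPM of *Sox11* against 24.3 CPM in control, a log2 ratio of 1.92 (1.73 to 2.11). For *Sox18* the same cells were at 7.18 and 0.222 CPM. Of the 5 members with 50 UMIs in these cells 2 were higher and 1 was lower, where 3.97% and 4.4% of genes were. *Sox18* reached 50 UMIs there only through the *SM22-SmoM2* library, at 64 UMIs against 3, so its place in this count describes it only. Between the cells with *Egfl6* the log2 ratio of *Sox11* was 4.90 (3.78 to 6.35) and that of *Sox9* -1.40 (-2.11 to -0.66), over backgrounds of 9.76% higher and 9.51% lower and only 38 control cells.

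**Figure D4:**
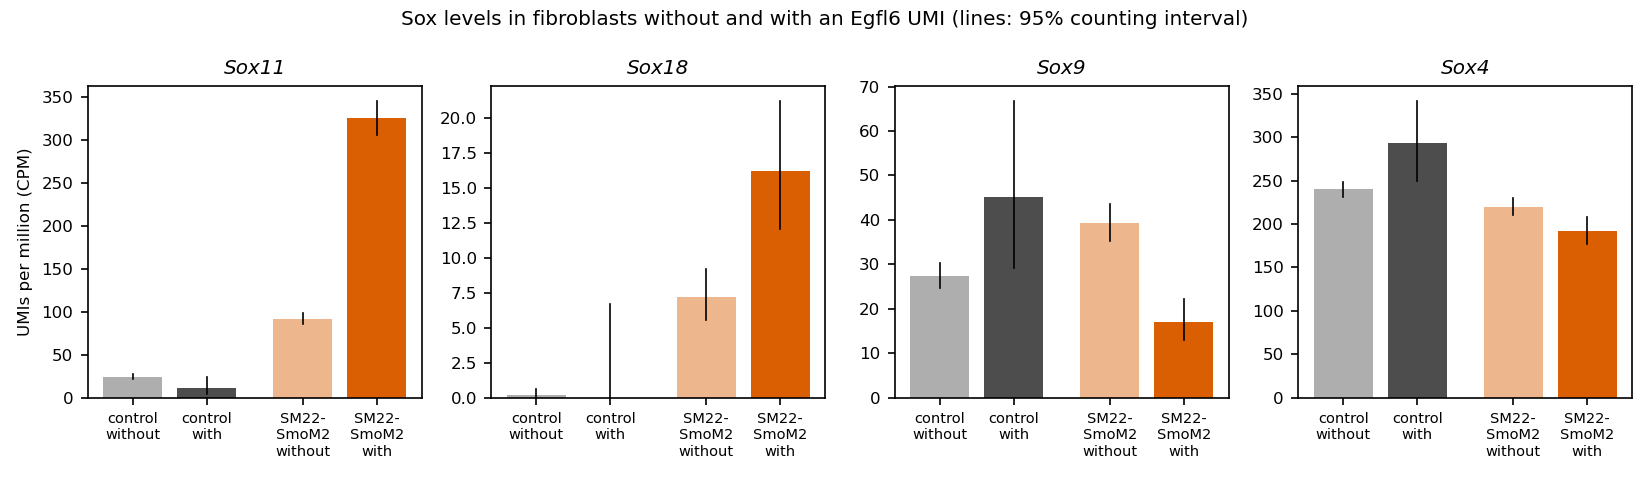
Level in UMIs per 1000000 (CPM, vertical axis) of 4 Sox genes in fibroblasts without (pale) and with (dark) an *Egfl6* UMI in the control (grey) and *SM22-SmoM2* (orange) library, lines for the 95% counting interval. In *SM22-SmoM2* cells *Sox11* and *Sox18* are higher with *Egfl6* (325 against 91.8 and 16.2 against 7.18 CPM) and *Sox9* is lower (17.1 against 39.3 CPM).

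The sub-clusters differed in how many of their cells had *Egfl6*, and the *Sox11* difference over this split varied among them. Of the 166 *SM22-SmoM2* cells of sub-cluster 6, 143 had an *Egfl6* UMI, against 62 of 126 in sub-cluster 7, 26 of 68 in sub-cluster 8 and 21 of 186 in sub-cluster 4. Within sub-cluster 6, *Sox11* was at 581 CPM with and 639 CPM without *Egfl6*, a log2 ratio of -0.14 (-0.38 to 0.11). The log2 ratio was 0.28 (-0.14 to 0.68) in sub-cluster 4, 0.51 (0.06 to 0.95) in sub-cluster 7 and 1.32 (0.82 to 1.84) in sub-cluster 8. Weighted by the total UMIs of each sub-cluster, the mean over these 4 was 0.37. The value of 1.82 covers all *SM22-SmoM2* fibroblasts and was not taken within sub-clusters. It therefore differs from this mean both in its cells and in how the ratio was taken, and the part of each was not tested. For *Sox18*, sub-cluster 4 gave no ratio. Its log2 ratio was 0.89 (0.03 to 1.78) in sub-cluster 7 and 0.54 (-1.51 to 2.51) in sub-cluster 8. In sub-cluster 6 it was -0.29 (-2.16 to 2.16), from 13 UMIs with and 3 without *Egfl6*. The weighted mean of these *Sox18* ratios was 0.30, while 1.17 again covers all these fibroblasts without regard to sub-cluster. *Sox9* within sub-cluster 4 was -1.02 (-1.81 to -0.33). *Egfl6* was among the genes used to make the sub-clusters, so values within them are not independent of the split. Of the 128 *SM22-SmoM2* fibroblasts with at least 5 *Sox11* UMIs, 79 (61.7%) had an *Egfl6* UMI. In thinned *SM22-SmoM2* fibroblasts 3 of the 181 cells with *Sox11* also kept *Sox18* (1.66%, 0.343 to 4.77), against 13 of the 866 without (1.5%, 0.802 to 2.55).

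In Schwann cells, the glia of peripheral nerve, the levels of *Sox2* and *Sox10* did not differ between the libraries beyond counting error. *Sox2* was at 118 CPM (109 to 128) from 557 UMIs in control and 119.9 CPM (105 to 136) from 242 UMIs in *SM22-SmoM2*, a log2 ratio of 0.02 (-0.20 to 0.24). *Sox10* was at 75.1 CPM (67.5 to 83.3) and 76.8 CPM (65.2 to 89.9), with a log2 ratio of 0.03 (-0.25 to 0.31). After thinning, 15.5% of control and 17.3% of *SM22-SmoM2* Schwann cells kept a *Sox2* UMI (45.5% and 48.6% before), and 0.275% and 0.191% of fibroblasts did. Among thinned control Schwann cells, 8.57% (3.99 to 15.6) of those with *Sox2* and 11.2% (8.72 to 14.1) of those without kept *Sox10*, and the intervals overlapped. *Sox4* had a log2 ratio of -0.15 (-0.23 to -0.08).

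*Sox11* was the 1 of the 5 members with 50 UMIs in Schwann cells that was higher by a log2 ratio of at least 1, where 1.14% of 8618 genes were, and none was lower, where 1.87% were. It rested on few cells, and it would not have reached 50 UMIs without 1 of them, so this count describes it only. The 15 control UMIs lay in 12 cells, and 24 of the 39 *SM22-SmoM2* UMIs lay in 1 cell of the dividing cluster 15, which had 22672 UMIs, 39 of *Col1a1* and 1 of *Egfl6*. Without that cell the *SM22-SmoM2* level was 7.52 in place of 19.3 CPM, and with the highest cell left out of each library the log2 ratio went from 2.60 (1.71 to 3.57) to 1.56. In male cells alone it was 1.16. *Egfl6* was at 4.95 CPM and *Col1a1*, the fibroblast collagen, at 2907 CPM in the same *SM22-SmoM2* Schwann cells, against 0.212 and 2752 CPM in control ones. The part of fibroblast RNA in this value was not tested.

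The Schwann clusters differed in their Sox levels (plot of Schwann and endothelial clusters). *Sox10* was highest in cluster 13 (*Gfra3*, *Mbp*), at 113 CPM (90.0 to 140.1) in control and 182 CPM (136 to 239.9) in *SM22-SmoM2*, and lowest in cluster 6 (*Fgf5*, *Gfra3*), at 50.2 CPM (39.9 to 62.3) and 31.2 CPM (17.1 to 52.4). *Sox4* was highest in cluster 6, at 1270.5 and 1491 CPM, against 839 and 629.7 CPM in cluster 13. It was lower still in the dividing cluster 15 of the control library, at 643 CPM. *Sox2* lay between 98.1 and 146 CPM in all 4 clusters of both libraries. In cluster 5 *Sox10* was at 79.8 and 72.7 CPM. The melanocyte markers summed to 111 CPM in control against 22.3 CPM in *SM22-SmoM2* Schwann cells and to 1.36 CPM and, with all 5 at 0, 0 CPM in cluster 13, where *Sox10* was highest. In control they summed to 156 CPM in cluster 5 and 157 CPM in cluster 6, and in *SM22-SmoM2* to 0 and 73.6 CPM.

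Of 12 myelin genes and genes dependent on Sox10, 11 had 50 UMIs in Schwann cells. One was higher in *SM22-SmoM2* by a log2 ratio of at least 1, where 1.14% of all genes were. This was *Mag*, a myelin adhesion protein, at 8.06 and 16.4 CPM. The median over the list was 0.04 against -0.08 over all genes. Of 10 genes of immature and repair Schwann cells 9 had 50 UMIs, and 1 was lower, where 1.87% of all genes were. This was the glial filament gene *Gfap*, at 33.9 and 11.9 CPM. *Jun*, the factor known to drive the repair state, was at 1193 and 917 CPM, and *Ngfr* at 252 and 188 CPM.

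In endothelial cells *Sox17* was at 184 CPM (174 to 193) from 1483 UMIs in control and 164 CPM (148 to 181) from 375 UMIs in *SM22-SmoM2*, and *Sox18* at 45.7 CPM (41.1 to 50.6) and 54.2 CPM (45.1 to 64.7). The log2 ratios were -0.16 (-0.33 to 0.00) and 0.25 (-0.06 to 0.54). After thinning, a *Sox17* UMI was kept by 20.1% and 20.2% of endothelial cells (65.2% and 63.7% before), against 0.367% and 0.191% of fibroblasts. *Sox18* was kept by 5.92% (4.28 to 7.95) and 11.5% (7.86 to 15.9), where the shares before thinning were 33.5% and 31.3%. None of the 4 members with 50 UMIs was higher by a log2 ratio of 1, as 0.638% of 9875 genes were, or lower by as much. *Sox11* came nearest, at 9.90 CPM (7.85 to 12.3) against 19.2 CPM (14.0 to 25.8) in *SM22-SmoM2*, a log2 ratio of 0.96 (0.39 to 1.51) that became 1.53 after thinning. That of *Sox18* became 1.0. *Col1a1* in control endothelium was at 399 CPM, against 23244 CPM in fibroblasts, while *Sox11* in the same endothelium was at 9.90 CPM against 23.8 CPM in fibroblasts. *Egfl6* had no UMI in control endothelium and was at 5.25 CPM, from 12 UMIs, in that of *SM22-SmoM2*. The part of fibroblast RNA was not tested.

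Cluster 11 had the highest levels of both SoxF genes. *Sox17* was at 319 CPM (297 to 342) in control and 219.7 CPM (181 to 264) in *SM22-SmoM2*, against 144 and 170.3 CPM in cluster 2 and 79.7 and 116 CPM in cluster 8. *Sox18* was at 69.0 and 94.4 CPM in cluster 11, at 49.5 and 49.1 CPM in cluster 8 and at 27.3 and 37.7 CPM in cluster 2, so the order of the other 2 clusters differed between the genes. Cluster 11 carried the arterial connexin *Gja5*, at 76.0 and 25.1 CPM, and the Notch ligand *Dll4*, at 126 and 104 CPM, and had *Ackr1*, a venous gene, at 7.09 and 1.93 CPM. Cluster 8 carried *Ackr1* at 477 and 315 CPM and, in control, the lymphatic genes *Lyve1* and *Prox1* at 111 and 38.6 CPM. In *SM22-SmoM2* these were at 21.8 and 20.4 CPM. Cluster 8 thus held markers of more than one kind of vessel.

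**Figure D5:**
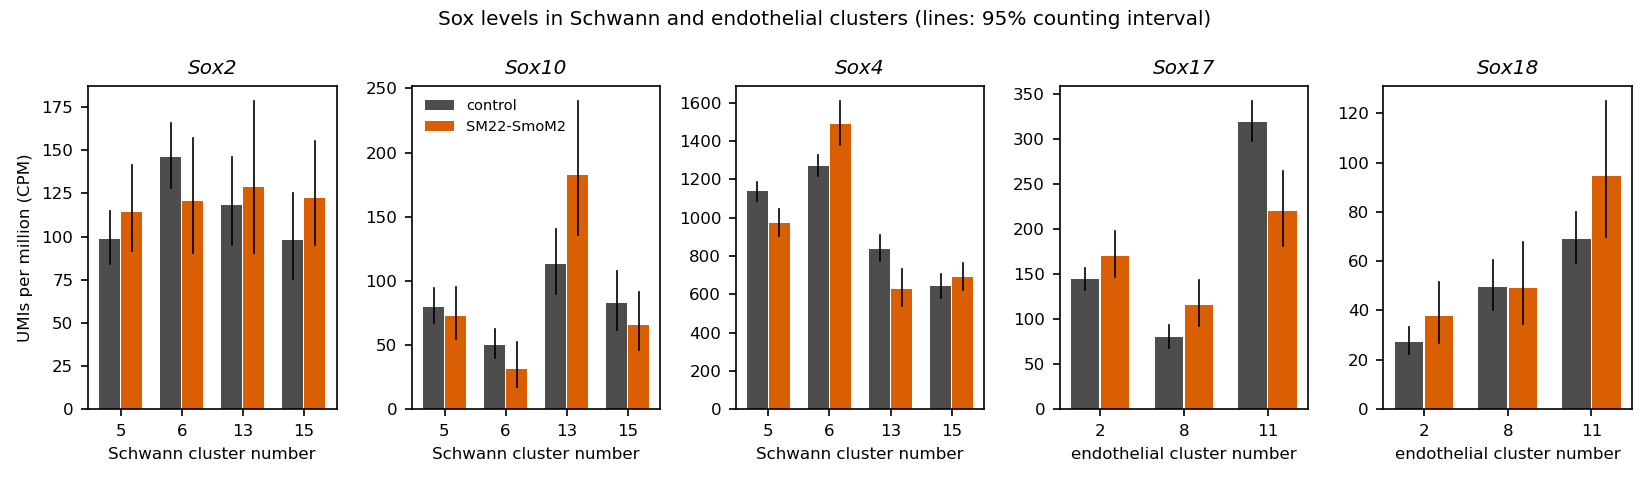
Level in UMIs per 1000000 (CPM, vertical axis) of *Sox2*, *Sox10* and *Sox4* in the 4 Schwann clusters and of *Sox17* and *Sox18* in the 3 endothelial clusters (horizontal axis, cluster number), control in grey and *SM22-SmoM2* in orange, lines for the 95% counting interval. *Sox10* is highest in cluster 13 and *Sox4* in cluster 6, and both SoxF genes are highest in cluster 11.

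All 8 genes known to take SoxF input in endothelium had 50 UMIs, and 1 of them was lower in *SM22-SmoM2* by a log2 ratio of at least 1, where 1.6% of all genes were. This was *Cldn5*, a tight junction protein, at 716 and 356 CPM. *Dll4* was at 84.7 and 69.5 CPM (-0.28, -0.54 to -0.03) and *Notch1* at 172 and 158 CPM. Of 6 arterial genes 2 were lower, *Gja5* at 24.1 and 7.0 CPM and *Sema3g* at 28.3 and 10.1 CPM, and none of 5 venous genes was. The 5 lymphatic endothelial markers summed to 1177 CPM in control endothelium and to 207 CPM in that of *SM22-SmoM2*, and the part of this in the endothelial values was not tested. Cluster 11 made up 194 of 692 control and 53 of 262 *SM22-SmoM2* endothelial cells.

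Mural muscle cells, marked by *Rgs5* and *Des*, were the main site of *Sox5*. It was at 55.7 CPM (45.8 to 67.0) from 112 UMIs in control and 46.3 CPM (31.0 to 66.5) from 29 UMIs in *SM22-SmoM2*, with a log2 ratio of -0.27 (-0.91 to 0.33). Muscle held 43.2% (37.1 to 49.5) of the control *Sox5* UMIs, where it held 6.68% of all UMIs. Schwann cells came next at 11.9 and 12.4 CPM, followed by endothelial cells at 4.58 and 4.81 CPM, whose control interval (3.23 to 6.31) overlapped that of fibroblasts. After thinning, a *Sox5* UMI was kept by 8.13% of control muscle cells and 0.918% of control fibroblasts. *Sox17* was at 15.4 CPM in control muscle, with 13 of its 31 UMIs in 1 cell, and at 9.03 CPM without that cell. *Sox11* was at 7.46 and 20.7 CPM from 15 and 13 UMIs, a log2 ratio of 1.48 (0.28 to 2.65). Neither of the 2 members with 50 UMIs in muscle passed a log2 ratio of 1, where 1.02% of 6154 genes were higher and 2.92% lower. In immune cells the 1 such member, *Sox4*, was lower, with a log2 ratio of -1.06 (-2.02 to -0.20), where 2.78% of 2661 genes were higher and 6.35% lower. Most of its control UMIs, 42 of 56, lay in immune cluster 19, which held 39 control but 4 *SM22-SmoM2* cells. Within clusters the intervals overlapped, at 127 (91.6 to 172) against 150.1 CPM (60.3 to 309) in cluster 19 and 37.8 (20.7 to 63.5) against 21.9 CPM (8.82 to 45.2) in cluster 16. *Sox11* in immune cells was at 1.43 CPM from 1 control UMI and 21.9 CPM from 8 *SM22-SmoM2* UMIs, a log2 ratio of 3.94 (1.04 to 9.41). Its *SM22-SmoM2* levels in endothelial, Schwann, muscle and immune cells thus lay between 19.2 and 21.9 CPM. The part of fibroblast RNA in these values was not tested. *Sox9* outside fibroblasts was seen chiefly in 16 keratinocytes of the control library, at 201 CPM (154 to 258) from 61 UMIs.

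The genes whose level followed each member most closely over the 32 combinations of cluster and library with at least 20 cells were found among 13158 genes. Points of one library share its depth and free RNA, so these correlations of log2(CPM + 10) are descriptions. *Sox10* was followed by *Erbb3*, the neuregulin receptor of Schwann cells (Pearson r 0.98), and *Sox2* by *Tfap2a* and *Foxd3* (both 0.98), factors known from neural crest. *Sox17* was followed by *Dll4* (0.99) and *Robo4* (0.98), and *Sox18* by *Sema6a* (0.93) and *Ephb4* (0.90). *Sox11* was followed by *Egfl6* (0.88), *Bmp3* (0.88) and the neurotrophin *Ntf3* (0.86). *Sox9* was followed by *Dnm1* (0.87) and *Gpc3* (0.85), *Sox5* by *Slc6a9* (0.84) and the integrin *Itga7* (0.82), and *Sox4* by *Sec63* (0.93).

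The gene list held 11 other Sox genes, most of them at very low counts. *Sox7*, the remaining SoxF gene, was at 81.7 and 76.5 CPM in endothelial cells and at no more than 6.38 CPM in the other lineages with over 100 cells per library. *Sox6*, a SoxD gene like *Sox5*, was at 60.9 and 47.6 CPM in Schwann cells and at 2.98 and 1.60 CPM in muscle, where *Sox5* was highest. *Sox13*, the other SoxD gene, was at 23.6 and 17.5 CPM in endothelial cells. *Sox12*, the remaining SoxC gene, lay at 18.9 CPM or less in fibroblasts, endothelial, Schwann and muscle cells of either library. No UMI of *Sox1* or *Sox14* was found in those lineages.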

How the data were processed

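The authors prepared 10x Chromium Single Cell 3′ v2 libraries, aligned reads to mm10/GRCm38 and counted confidently mapped, deduplicated UMIs with Cell Ranger. The deposited values are raw UMI counts per gene and cell. The Cell Ranger version and the strand counted are not given in the sources used here. Levels are in CPM and are not divided by length, since a 3′ UMI marks 1 transcript end. The barcode list held every barcode of the kit, so barcodes shared between libraries could not be counted.

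Cells with fewer than 200 genes or over 10% mitochondrial UMIs were left out. Counts scaled to 10000 UMIs per cell were log-transformed, and K-means (scikit-learn 1.9.0, 50 starts, K = 20 for all cells and 15 for fibroblasts) grouped the cells on 20 principal components computed from the 2000 most variable genes, Sox genes aside. Each cluster was assigned the marker list with the highest mean log2 ratio to the median cluster, and took its name where at least 3 markers of that list reached 10 CPM and 1.5 times the median cluster. Fibroblast sub-clusters with 2 or more markers of another lineage among their 10 leading genes were left out, a limit set after the values had been seen. UMIs were summed per class. Intervals are exact Poisson, conditional binomial or Clopper-Pearson and cover counting error only. A count of 0 allows 3 UMIs, and no ratio is given where both counts are 3 or fewer. Shares of cells were taken after thinning each cell to 1500 UMIs. Cells were called male from Y-linked UMIs without *Xist*, and female from the reverse. The ratio was tested on simulated data. The scripts ran in Python 3.11.15, with scanpy 1.11.5 for Leiden clustering and Scrublet. Alternatives covered the mitochondrial filter, the clustering, doublets, thinning, per-cell averaging, sex and, for the split by *Egfl6*, depth and sub-cluster. Genes named are the 8 members, *Egfl6*, *Gli1*, *Ptch1*, members of the lists, lineage markers, cluster-leading genes and the genes most like each member. The members and lists were chosen with earlier results of these data known.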

Additional observations from a re-analysis of the deposited data

How the results depend on the processing

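With 1 library per condition no result has a replicate check, and no library could be left out. No paired analysis was possible because the results come from no test. Of 425 values of 37 results under 16 other settings, 354 lay within the counting interval of the value reported and 70 lay outside it. A further 1, the *Sox9* ratio in fibroblasts, whose reported interval did not hold 0, changed sign. Ratios whose interval held 0 also took the other sign under some setting: *Sox4* and *Sox5* in muscle (up to 0.31 and 0.20), *Sox5* and *Sox10* in Schwann cells (down to -0.068 and -0.057) and *Sox17* in endothelium. Scrublet marked 6 control and 11 *SM22-SmoM2* cells, too few to say that doublets were found, and the fibroblast values of *Sox2*, *Sox10* and *Sox17* rest on 10 to 30 UMIs per library. Some settings were chosen after seeing the data: leaving out sub-clusters at 1 marker, counting the unnamed cluster with the fibroblasts and leaving out the highest cell. The cause of the shifts below was not tested.

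Thinning, which left few *Sox9* UMIs, turned the *Sox9* ratio in fibroblasts to -0.014. The *Sox4* ratio in fibroblasts was -0.11 by Leiden clustering, at K = 12 and with the unnamed cluster, and -0.31 with sub-clusters left out at 1 marker. The *Sox11* ratio there was 2.90 by per-cell CPM. In endothelium, thinning gave -0.28 for *Sox4*, 1.53 for *Sox11* and 1.0 for *Sox18*, and *Sox17* was 0.034 by per-cell CPM and -0.35 in male cells. In Schwann cells *Sox4* was -0.069 at K = 12, and *Sox11* was 1.27 at K = 12, 1.16 in male cells and 1.56 without the highest cell. At K = 30, 144 *SM22-SmoM2* cells in place of 102 were named muscle, and 0 in place of 51 stayed unnamed. *Sox4* in muscle was then 0.31 and *Sox11* 5.76, and the part of the unnamed cells in these values was not tested.

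In the split by *Egfl6*, *Sox4* was -0.41 after thinning, -0.45 in cells of middle depth and -0.018 within sub-clusters. *Sox11* was 1.67 by Leiden clustering and with the unnamed cluster, 1.36 after thinning, 2.10 at 2 or more *Egfl6* UMIs, 2.07 at middle depth and 0.37 within sub-clusters. *Sox18* was 0.41 after thinning, where few of its UMIs remained, and 0.30 within sub-clusters, whose own ratios ran from -0.29 to 0.89. Values within sub-clusters cover only those where both sides of the split had enough cells, not all *SM22-SmoM2* fibroblasts.

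Shares of UMIs in the main lineage of each gene also moved. By Leiden clustering the control share was 85.6% for *Sox2*, 38.1% for *Sox4* and 97.0% for *Sox17*, and the *SM22-SmoM2* share 95.4% for *Sox9* and 95.3% for *Sox11*. At K = 12 the control share was 87.7% for *Sox2*, 38.7% for *Sox4* and 85.2% for *Sox10*, and the *SM22-SmoM2* share 78.7% for *Sox2*, 30.7% for *Sox4*, 95.4% for *Sox9*, 84.4% for *Sox10* and 96.1% for *Sox11*. After thinning the control share was 96.9% for *Sox2*, 51.8% for *Sox4*, 50% for *Sox5*, 91.3% for *Sox9*, 95.1% for *Sox10* and 93% for *Sox17*, and the *SM22-SmoM2* share 43.6% for *Sox4*, 100% for *Sox10*, 79.2% for *Sox11* and 56.4% for *Sox18*. By per-cell CPM the control share was 95.7% for *Sox2*, 53.3% for *Sox4*, 52.7% for *Sox5* and 94.7% for *Sox10*, and the *SM22-SmoM2* share 43.2% for *Sox4*, 48.3% for *Sox5*, 97.2% for *Sox10* and 79.7% for *Sox11*. In male cells the control share was 32.6% for *Sox4*, 32.2% for *Sox5*, 96.0% for *Sox9*, 84.8% for *Sox10* and 79.3% for *Sox11*, and the *SM22-SmoM2* share 24.0% for *Sox4* and 36.7% for *Sox18*. With sub-clusters left out at 1 marker, fibroblasts held 70.9% of the control *Sox9* and 62.2% of the control *Sox11* UMIs. With the unnamed cluster they held 95.4% of *Sox9* and 95.3% of *Sox11* in *SM22-SmoM2*. Without a mitochondrial filter the control *Sox17* share was 96.7%.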
